A study of Oryza sativa with 12 samples.

Results

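The young panicle of the rice line IL50-7 was compared with its flag leaf on 6 of the 12 Affymetrix rice arrays of the study. Members were chosen by their titles, as the 3 panicle arrays and the 3 flag leaf arrays of IL50-7. The other 6 arrays are the same organs of the line KMR3. They were used to set the organ difference of IL50-7 beside that of KMR3. They also entered some alternative fits of the IL50-7 comparison, in which all 12 arrays were normalized or modelled together. IL50-7 is an introgression line, a line that carries donor chromosome segments in another background. The series title calls it high yielding, and the labels name no donor and no segment. The IL50-7 panicle group held young panicles taken once they had fully emerged, as 3 biological replicates. The IL50-7 flag leaf group held the last leaf below the panicle, also as 3 biological replicates. Both groups came from field-grown plants, and the labels give no treatment, no age and no number of plants per sample. They do not say whether a panicle and a leaf with the same replicate number shared a plant.

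A rice panicle carries spikelets, and the identity of the organs in each spikelet is set by MADS-box transcription factors acting in combination. The anther wall, above all its innermost layer, the tapetum, feeds the developing pollen and supplies the pollen coat. The flag leaf is the main source of the sugar that the panicle imports, and its cells are rich in chloroplasts. The comparison therefore sets a sink organ that holds floral and reproductive tissue beside a mature photosynthetic organ of the same line. A difference in level between bulk organs can come from fewer cells of a type or from less RNA per cell, and these cannot be told apart here.

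Each array gave 1 intensity per probe set, analysed as log2 after quantile normalization of the 6 arrays. The trimmed mean of the deposited intensities lay between 125 and 221 per array. The background was set at log2 4.02, from control probe sets of transcripts that were not added. Across probe sets, replicate arrays correlated at r = 0.906 to 0.920 within panicle and 0.891 to 0.920 within leaf, and panicle with leaf arrays at 0.786 to 0.836. Leaf replicate 1 stood nearest the panicle arrays. Each leaf array was also compared with the mean of its fellow leaf replicates. Its gap from that mean was set against the gap of the panicle mean from the same mean, over probe sets. This gave r = 0.492 for leaf replicate 1, -0.02 for leaf replicate 2 and -0.11 for leaf replicate 3. Both gaps subtract the same mean, which pushes r upward, so these values serve only to compare the leaf arrays. The ratio of 3' to 5' probe signal, a sign of RNA quality, was 18.7, 23.6 and 7.99 in the panicle arrays and 8.44, 7.57 and 7.27 in the leaf arrays for one actin control. For a second actin control it was 6.23, 12.7 and 4.95 in the panicle arrays and 7.66, 7.00 and 6.39 in the leaf arrays. For the second of the GAPDH controls it was 8.72, 18.7 and 7.68 in the panicle arrays and 6.01, 2.54 and 3.68 in the leaf arrays, and for ubiquitin 0.897, 1.0 and 0.866 in the panicle arrays and 0.820, 0.817 and 0.746 in the leaf arrays. For these last 2 controls every panicle array lay above every leaf array, while both actins overlapped between the organs, as did the first GAPDH control, at 3.28, 10.1 and 20 in the panicle arrays and 1.52, 2.56 and 12.4 in the leaf arrays. The part of RNA quality in the organ difference was not tested. The labelled organs carried their markers: all 7 E class and AGL6-like MADS genes lay above background on each panicle array and at most 1 on any leaf array. Light harvesting genes were bright in both organs, with medians of 10.70, 11.95 and 11.41 on the panicle arrays and 13.05, 13.06 and 13.07 on the leaf arrays.

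The organ difference was wide. Of 34316 probe sets tested, 13403 differed at an adjusted p under 0.05 by limma, a share of 39.1%. In panicle 6460 were higher (18.8%) and 6943 were lower (20.2%), and 5106 of all called differed at least 4-fold, 2575 of them higher and 2531 lower in panicle. A group of 1165 probe sets lay above background on all 3 panicle arrays and below it on all 3 leaf arrays, and 839 showed the opposite. Counted by gene, with the brightest probe set of each gene, 4360 of 16418 genes were higher in panicle (26.6%) and 3666 were lower (22.3%). These 2 shares are the background against which the gene lists below are read, and the median log2 difference over all genes was 0.13. Calls came from every chromosome, with 24.0% to 29.4% of genes higher in panicle on each of the 12. When each array was left out in turn, 5149 of the 8026 called genes (64.2%) kept their call in all 6 fits. Another 82 were called wherever they were tested but fell under the filter on dim probe sets in at least 1 fit. With a difference of more than 1 log2 unit required, the number of called members moved by over 1.5 times in 41 of the 49 lists. A member is named below with the array where the call rested on it.

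**Figure D1:**
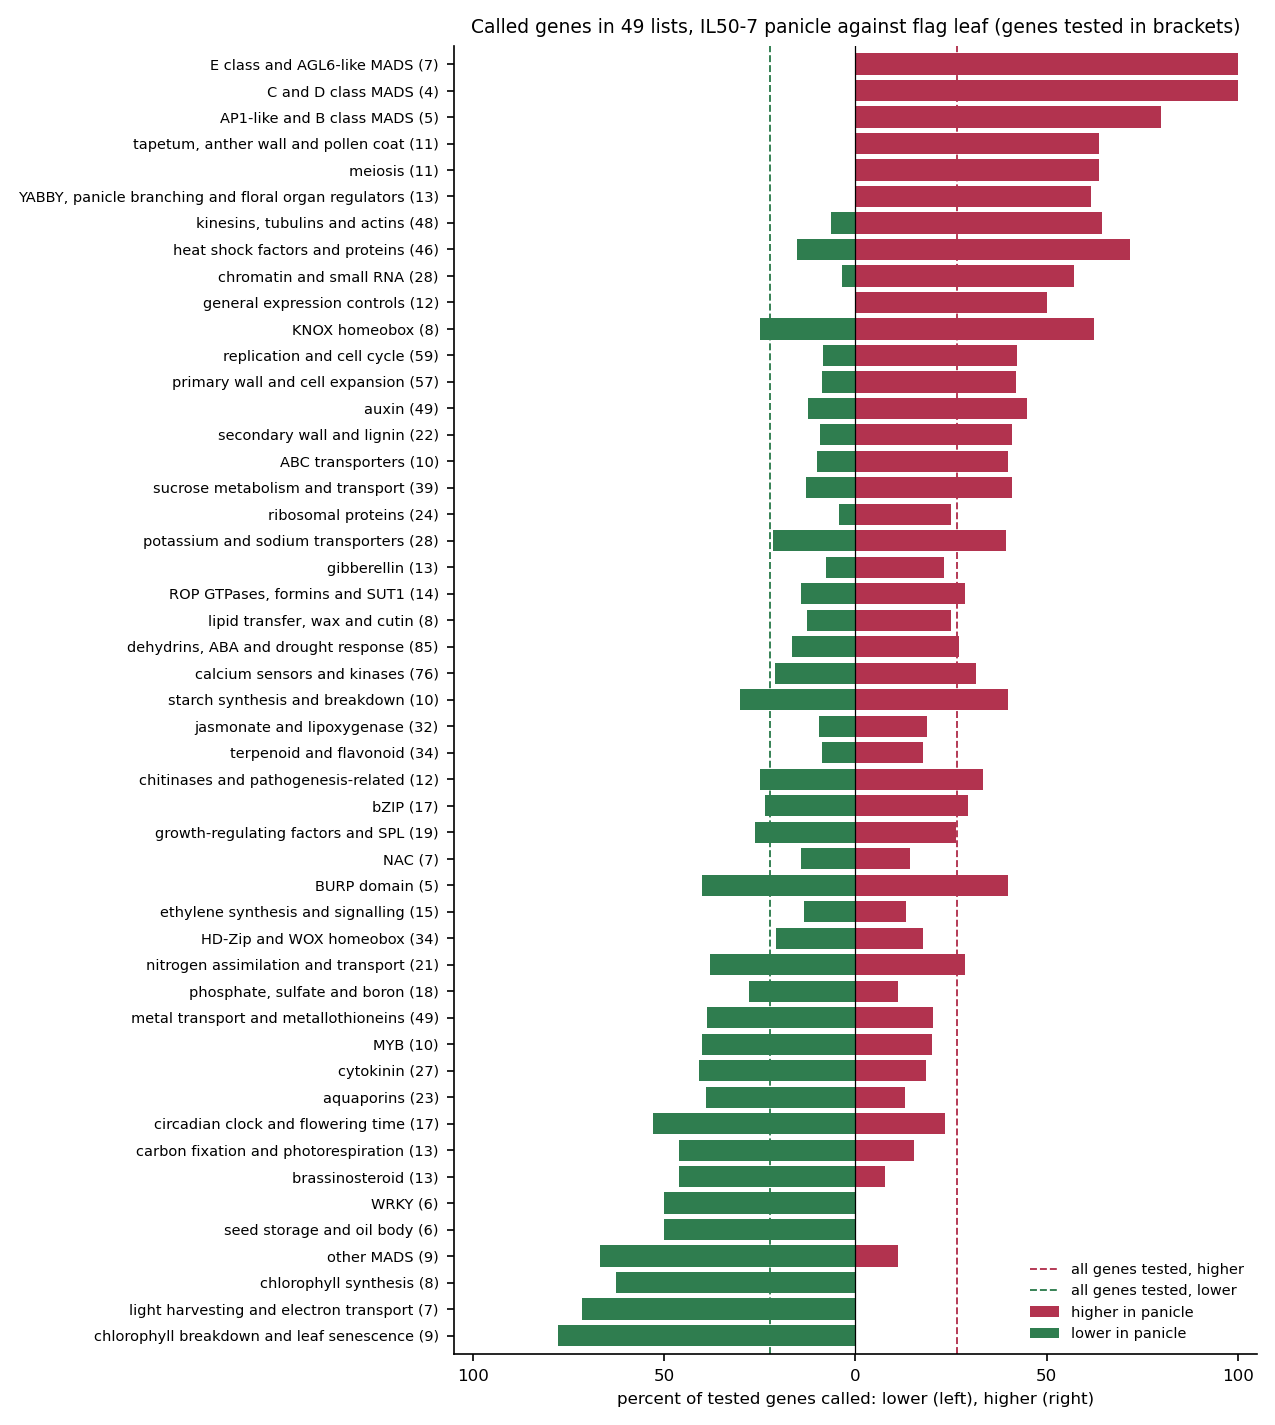
Percent of tested genes in each of 49 lists that were called higher (right) or lower (left) in IL50-7 panicle than in flag leaf, with the number tested in brackets and dashed lines at the shares of all genes, 26.6% higher and 22.3% lower. All 7 tested E class and AGL6-like MADS genes lie on the right. On the left lie 7 of 9 genes of the chlorophyll breakdown and senescence list, which also holds RSH and CRSH genes.

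Nearly all floral organ identity genes were higher in panicle. All 7 tested E class and AGL6-like MADS genes rose, with a median log2 difference of 8.66 beside 0.13 over all genes, as did all 4 of the C and D class and 4 of 5 AP1-like and B class genes. MADS6, an AGL6-like gene that acts in floret meristem and organ identity, had levels of 10.81, 11.12 and 10.76 on the panicle arrays and 0.97, 0.51 and -0.72 on the leaf arrays. The leaf arrays all lay below background, so MADS6 was at least 117-fold higher (adjusted p = 1.96e-05). MADS8, an E class gene, reached 11.54, 11.76 and 11.71 on the panicle arrays and 2.52, 3.24 and 3.28 on the leaf arrays, at least 200-fold higher (adjusted p = 2.00e-05). MADS1, an E class gene needed for the lemma and palea, read 11.65, 11.68 and 11.54 on the panicle arrays and 2.52, -0.33 and 4.27 on the leaf arrays (means of 11.62 in panicle and 2.15 in leaf, adjusted p = 4.18e-04). One leaf array of MADS1 lay just above background and the other two below it, and no panicle array came near them.

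Among the genes of the inner whorls, MADS58, a C class gene of stamen and carpel identity, read 10.04, 10.29 and 10.50 on the panicle arrays and 4.24, 5.34 and 5.30 on the leaf arrays, 39.9-fold higher (log2 5.32 ± 0.34, adjusted p = 1.15e-04). MADS3, its C class partner, was 8.33-fold higher (log2 3.06 ± 0.32, adjusted p = 5.66e-04). The D class ovule gene MADS13 read 7.83, 8.56 and 8.43 on the panicle arrays and 1.07, 0.03 and -0.12 on the leaf arrays, at least 19.0-fold higher (adjusted p = 7.01e-05). The B class gene MADS16, which specifies lodicules and stamens, was well above background in both organs, at 12.75, 12.71 and 12.42 on the panicle arrays and 8.60, 7.58 and 7.66 on the leaf arrays, 25.7-fold higher (log2 4.68 ± 0.29, adjusted p = 1.02e-04). MADS15, an AP1-like gene, averaged 9.35 in panicle and 2.46 in leaf (adjusted p = 9.71e-04). MADS18, also AP1-like, was the exception, with 9.91, 9.91 and 9.77 on the panicle arrays and 9.99, 9.52 and 9.27 on the leaf arrays, groups that overlapped (adjusted p = 0.36). All 15 called members of these 3 floral lists kept their calls whichever array was left out.

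MADS genes outside those classes went mostly the other way, with 6 of 9 lower in panicle and 1 higher. MADS50, a promoter of flowering, read 7.13, 7.21 and 6.20 on the panicle arrays and 8.89, 8.86 and 8.86 on the leaf arrays, 4.06-fold lower (log2 -2.02 ± 0.30, adjusted p = 0.00234). MADS26 was 5.71-fold lower (log2 -2.51 ± 0.36, adjusted p = 0.00206), MADS47 3.67-fold lower (log2 -1.88 ± 0.25, adjusted p = 0.00156) and MADS56 3.29-fold lower (log2 -1.72 ± 0.26, adjusted p = 0.00232). MADS29, which acts in the breakdown of maternal tissue of the developing grain, was the member that rose, at 5.58, 6.60 and 7.75 on the panicle arrays and 3.18, 2.64 and -2.40 on the leaf arrays, at least 6.14-fold higher (adjusted p = 0.00669). Of 13 YABBY, branching and floral organ regulators, 8 rose and none fell, and 6 held whichever array was left out. YAB1 read 12.88, 12.73 and 12.90 on the panicle arrays and 9.32, 8.63 and 9.0 on the leaf arrays, 14.4-fold higher (log2 3.85 ± 0.20, adjusted p = 6.45e-05). YAB6 was 10.4-fold higher (log2 3.38 ± 0.25, adjusted p = 1.66e-04). DL, which specifies the carpel, averaged 6.99 ± 0.23 in panicle and 4.40 ± 0.52 in leaf (SD, n = 3 each), 6.01-fold higher (log2 2.59 ± 0.35, adjusted p = 0.00158, 2 of 3 leaf arrays above background). FON1, a receptor kinase that limits floral meristem size, was 3.46-fold higher (log2 1.79 ± 0.20, adjusted p = 7.25e-04). RFL, the rice LEAFY counterpart, read 4.23, 3.99 and 3.26 on the panicle arrays and 4.14, 3.77 and 4.41 on the leaf arrays, near background in both organs.

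**Figure D2:**
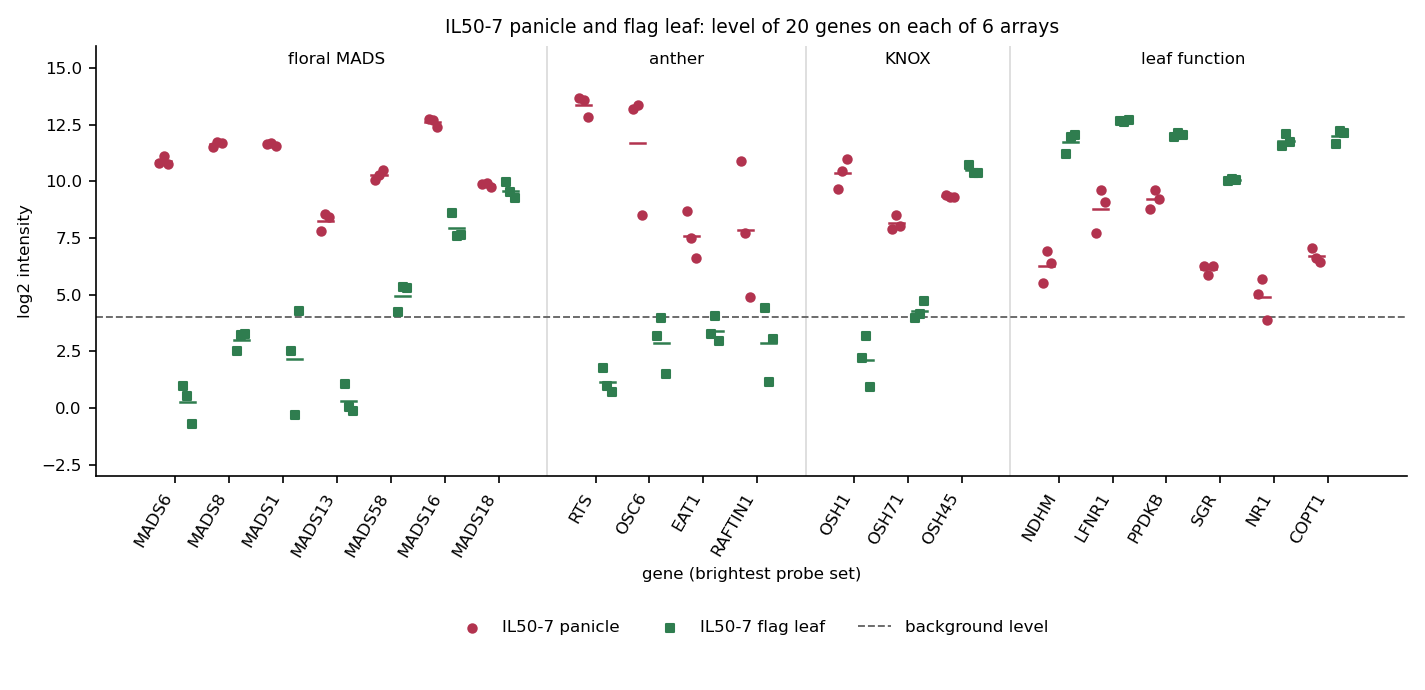
Level (log2 intensity) of 20 genes on each IL50-7 array, panicle as circles left of flag leaf as squares, with short lines at group means and the background level dashed. MADS18 overlaps between the organs, OSC6 and RAFTIN1 spread widely over the panicle arrays, and NR1 lies at 4.89 in panicle against 11.80 in leaf on average.

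More genes of the anther and of meiosis were higher in panicle than lower, and the anther genes varied between its replicates. Of 11 tapetum and pollen coat genes 7 rose and none fell, and 6 of the 7 held whichever array was left out. Their median level was 9.51, 8.20 and 6.64 on the panicle arrays and 4.42, 4.05 and 3.05 on the leaf arrays, lowest on panicle replicate 3. RTS, a tapetum-specific gene needed for male fertility, had the highest bounded fold of all named genes. Its levels were 13.69, 13.61 and 12.82 on the panicle arrays and 1.75, 0.98 and 0.69 on the leaf arrays, at least 653-fold higher (adjusted p = 1.96e-05). OSC6, an anther lipid transfer protein, read 13.21, 13.38 and 8.54 on the panicle arrays and 3.16, 3.97 and 1.49 on the leaf arrays, at least 206-fold higher (adjusted p = 0.00245). Panicle replicate 3 was far below the other two for OSC6 yet still above all leaf arrays. EAT1 and TDR, basic helix-loop-helix regulators of tapetum breakdown, were also called. EAT1 read 8.70, 7.5 and 6.64 on the panicle arrays and 3.26, 4.05 and 2.95 on the leaf arrays (adjusted p = 0.00166). TDR read 8.95, 8.20 and 6.93 on the panicle arrays and 4.71, 4.71 and 2.22 on the leaf arrays (adjusted p = 0.00692). GAMYB, a gibberellin-regulated MYB factor of the anther, was 4.39-fold higher (log2 2.14 ± 0.44, adjusted p = 0.00919), and MSP1, a receptor kinase that limits the number of spore mother cells, was 3.37-fold higher (log2 1.75 ± 0.31, adjusted p = 0.00507).

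Other tapetum genes spread widely over the panicle arrays. C4 read 12.36, 12.05 and 4.25 on the panicle arrays and 3.86, 4.49 and 4.40 on the leaf arrays, so replicate 3 sat inside the leaf range (adjusted p = 0.0771). CYP703A3, a hydroxylase of sporopollenin precursors, read 9.03, 7.62 and 1.44 on the panicle arrays and 3.91, 2.71 and -0.33 on the leaf arrays, with the same replicate low (adjusted p = 0.176). RAFTIN1, a BURP-domain protein of the pollen coat, read 10.90, 7.71 and 4.91 on the panicle arrays and 4.42, 1.15 and 3.05 on the leaf arrays (adjusted p = 0.0380). The call of RAFTIN1 was lost without leaf replicate 2, leaf replicate 3, panicle replicate 1 or panicle replicate 2. MIL2 and PTC1 did not pass.

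Of 11 meiosis genes 7 rose and none fell. The count was 4 without panicle replicate 3, and the calls of SPO11-4, SPO11-2, MEL1 and MSH5 held whichever array was left out. SPO11-4, of the family that makes meiotic double-strand breaks, read 10.17, 9.96 and 9.83 on the panicle arrays and 6.98, 6.41 and 5.62 on the leaf arrays, 12.6-fold higher (log2 3.65 ± 0.35, adjusted p = 4.04e-04). SPO11-2 was 6.64-fold higher (log2 2.73 ± 0.35, adjusted p = 0.00132, 2 of 3 leaf arrays above background). MEL1, an Argonaute of germ cells before meiosis, read 8.07, 7.11 and 7.48 on the panicle arrays and 3.99, 5.47 and 5.17 on the leaf arrays, 6.39-fold higher (log2 2.68 ± 0.46, adjusted p = 0.00423, 2 of 3 leaf arrays above background). MSH5, a crossover factor, was 4.27-fold higher (log2 2.09 ± 0.43, adjusted p = 0.00833, 2 of 3 leaf arrays above background). PAIR1 averaged 3.29 in panicle and 3.10 in leaf, below background in both organs, and MER3 (adjusted p = 0.775) and MRE11 (adjusted p = 0.107) were not called. Seed storage and oil body genes, fixed as markers of grain tissue, gave 0 of 6 higher and 3 lower in panicle, or 1 lower without any array but leaf replicate 1 and on the deposited scale, and RAG1 and GLUB-4 averaged 3.73 and 3.64 there, below background.

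Genes of cell division and the cytoskeleton were more often higher in panicle than lower. Of 59 replication and cell cycle genes 25 rose and 5 fell, and 18 and 3 of these held whichever array was left out. MCM2 to MCM7, the subunits of the replicative helicase, all rose. MCM2 read 7.78, 8.13 and 8.15 on the panicle arrays and 3.65, 3.65 and 2.83 on the leaf arrays, at least 16-fold higher (adjusted p = 1.55e-04). MCM5 read 7.71, 7.89 and 8.05 on the panicle arrays and 3.34, 0.25 and 0.11 on the leaf arrays, at least 14.5-fold higher (adjusted p = 0.00120). MCM4 fell under the filter on dim probe sets, and was not tested, without any 1 of the 3 panicle arrays. PCNA, the polymerase clamp, was 4.04-fold higher (log2 2.02 ± 0.33, adjusted p = 0.00360), and the mitotic cyclin CYCB2-1 was at least 8.74-fold higher (adjusted p = 2.32e-04). Cyclin-dependent kinase inhibitors split, with KRP5 8.76-fold higher (log2 3.13 ± 0.33, adjusted p = 5.74e-04) and KRP4 4.98-fold lower (log2 -2.32 ± 0.21, adjusted p = 3.30e-04). CYCD3-1, a G1 cyclin, was 3.56-fold lower (log2 -1.83 ± 0.27, adjusted p = 0.00226). Without leaf replicate 2 the count of lower cell cycle genes was 3, as it was on the deposited scale and with array medians set equal.

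Of 48 kinesin, tubulin and actin genes 31 rose and 3 fell, and 23 and 2 held whichever array was left out. The beta-tubulin TUB2 read 9.47, 9.62 and 10.32 on the panicle arrays and 6.67, 6.24 and 6.38 on the leaf arrays, 10.4-fold higher (log2 3.38 ± 0.28, adjusted p = 2.32e-04). TUB6 was 12-fold higher (log2 3.58 ± 0.80, adjusted p = 0.0122), and its leaf replicate 1, at 9.58, was far above leaf replicates 2 and 3, at 6.5 and 6.63. ACT1, an actin often used as a reference gene, was 4.41-fold higher (log2 2.14 ± 0.17, adjusted p = 2.24e-04). Among kinesins KIN12C was 6.41-fold higher (log2 2.68 ± 0.27, adjusted p = 5.13e-04), while KIN14M was 3.93-fold lower (log2 -1.98 ± 0.27, adjusted p = 0.00159). Of 12 genes fixed as general expression controls 6 rose and none fell, and GAPC3 was 4.02-fold higher (log2 2.01 ± 0.16, adjusted p = 2.29e-04), whereas GAPC read 13.25, 13.21 and 13.14 on the panicle arrays and 13.01, 12.96 and 12.98 on the leaf arrays (adjusted p = 0.155). No control gene of the list was lower in panicle.

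Class I KNOX homeobox genes, which keep meristem cells undetermined, were higher in panicle, and all 7 KNOX calls (5 higher and 2 lower of 8) held whichever array was left out, with 1 lower on the deposited scale. OSH1, the founding member in rice, read 9.68, 10.48 and 10.98 on the panicle arrays and 2.21, 3.18 and 0.92 on the leaf arrays, at least 81.9-fold higher (adjusted p = 1.67e-04). OSH71 was 14.8-fold higher (log2 3.89 ± 0.31, adjusted p = 2.19e-04, 2 of 3 leaf arrays above background), and OSH43 was at least 6.40-fold higher (adjusted p = 2.67e-04). The class II genes OSH45 and HOS59 fell, OSH45 2.21-fold lower (log2 -1.15 ± 0.16, adjusted p = 0.00202) and HOS59 2.26-fold lower (log2 -1.18 ± 0.13, adjusted p = 6.36e-04). HD-Zip and WOX homeobox genes split, with 6 of 34 higher and 7 lower, shares near or below those of all genes, and 6 and 3 on the deposited scale. HOX12 was at least 15.4-fold higher (adjusted p = 0.00310) and HOX1 4.31-fold lower (log2 -2.11 ± 0.30, adjusted p = 0.00190). HOX14 read 7.11, 4.74 and 7.67 on the panicle arrays and 0.15, 0.76 and 0.58 on the leaf arrays, at least 5.60-fold higher (adjusted p = 0.00149) and was not tested without panicle replicate 1 or 3, where it fell under the filter on dim probe sets. Without leaf replicate 2 or leaf replicate 3 the count of lower homeobox genes was 4. Growth-regulating factors and SPL genes gave 5 higher and 5 lower of 19. Each is 26.3%, near the 26.6% higher and 22.3% lower of all genes. The higher count was 3 without leaf replicate 3. The lower count was 2 or 3 without leaf replicate 2, leaf replicate 3, panicle replicate 2 or panicle replicate 3. On the deposited scale these genes were 6 higher and 0 lower, and with array medians set equal 5 and 3. SPL18 averaged 6.98 in panicle and 3.94 in leaf (adjusted p = 0.00290), and GRF6 averaged 6.85 in panicle and 3.90 in leaf (adjusted p = 8.11e-04).

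More cell wall genes rose than fell in panicle, in both wall classes. Of 57 primary wall and cell expansion genes 24 rose and 5 fell, and 14 and 3 held whichever array was left out. Without panicle replicate 2 or leaf replicate 2 the count of higher genes was 14 or 15, and without any 1 leaf array the count of lower genes was 3. The beta-expansins EXPB9 and EXPB10, wall-loosening proteins of the grass pollen allergen type, were among them. EXPB9 read 9.77, 13.08 and 13.24 on the panicle arrays and 3.82, 3.14 and 3.55 on the leaf arrays, at least 257-fold higher (adjusted p = 5.49e-04). EXPB10 read 7.59, 11.90 and 12.46 on the panicle arrays and 3.10, 2.56 and 2.90 on the leaf arrays, at least 98.9-fold higher (adjusted p = 0.00253). Panicle replicate 1 was the low one for both, and no panicle array overlapped the leaf arrays. EXPA7, an alpha-expansin, read 11.48, 9.82 and 8.93 on the panicle arrays and 5.51, 4.39 and 3.43 on the leaf arrays, 49.5-fold higher (log2 5.63 ± 0.75, adjusted p = 0.00148, 2 of 3 leaf arrays above background). Lower in panicle were CSLE1, a cellulose synthase-like gene with 3.14, 4.32 and 4.07 on the panicle arrays and 8.97, 9.80 and 10.26 on the leaf arrays (adjusted p = 1.82e-04), and EXLA4, 6.67-fold lower (log2 -2.74 ± 0.51, adjusted p = 0.00569).

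Of 22 secondary wall and lignin genes 9 rose and 2 fell. The count of higher genes was 5 without leaf replicate 2, and that of lower genes was 1 without leaf replicate 3 or panicle replicate 3. CESA9, CESA4 and CESA7, the cellulose synthase subunits of the secondary wall, all rose. CESA9 read 9.73, 9.06 and 8.88 on the panicle arrays and 7.19, 5.43 and 5.10 on the leaf arrays, 9.94-fold higher (log2 3.31 ± 0.56, adjusted p = 0.00389). CESA4 was 9.07-fold higher (log2 3.18 ± 0.75, adjusted p = 0.0151), a call lost without leaf replicate 2, where leaf replicate 1 at 10.43 lay well above leaf replicates 2 and 3 at 8.02 and 7.35. LAC10, a laccase, was 32.1-fold higher (log2 5.0 ± 0.55, adjusted p = 6.73e-04). Another laccase, LAC20, had the reverse pattern, with 3.70, 4.20 and 3.26 on the panicle arrays and 8.90, 7.49 and 7.79 on the leaf arrays (adjusted p = 5.51e-04). Chitinases included the second highest bounded fold of all named genes. CHT7 read 13.32, 13.41 and 13.31 on the panicle arrays and -0.11, -0.34 and 0.80 on the leaf arrays, at least 641-fold higher (adjusted p = 7.22e-06). CHT9 was at least 79.0-fold higher (adjusted p = 2.48e-04) and CHT5 at least 43.0-fold higher (adjusted p = 7.29e-05), while CHT11 was 3.67-fold lower (log2 -1.88 ± 0.30, adjusted p = 0.00307). The lipid transfer gene LTP110-A read 12.37, 11.60 and 10.39 on the panicle arrays and 6.98, 3.28 and 3.04 on the leaf arrays, 1 of which lay above background (adjusted p = 0.00255), and KCS20, a long-chain fatty acid elongase, was at least 23.4-fold higher (adjusted p = 8.05e-04).

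Several genes of sucrose transport and cleavage were higher in panicle, and other members of their families were lower. Of 39 sucrose genes 16 rose and 5 fell, and 9 and 3 held whichever array was left out. Without panicle replicate 2 the count of higher genes was 10, and without leaf replicate 2, leaf replicate 3 or panicle replicate 3 that of lower genes was 3. SWEET11, a sucrose exporter, read 11.45, 11.01 and 10.49 on the panicle arrays and 5.02, 3.51 and 4.13 on the leaf arrays, 109-fold higher (log2 6.76 ± 0.43, adjusted p = 1.10e-04, 2 of 3 leaf arrays above background). The cell wall invertases GIF1 and CIN3 also rose. GIF1 read 7.63, 6.62 and 5.89 on the panicle arrays and 3.04, 0.49 and 0.05 on the leaf arrays, at least 6.46-fold higher (adjusted p = 0.00281). SUS3, a sucrose synthase, was at least 17.7-fold higher (adjusted p = 1.74e-04). SWEET5 read 5.71, 9.98 and 9.72 on the panicle arrays and 0.75, 3.54 and 3.54 on the leaf arrays, at least 21.8-fold higher (adjusted p = 0.0114), with panicle replicate 1 the low one again. Of the members that fell in panicle, SWEET2B was 34.7-fold lower (log2 -5.12 ± 0.43, adjusted p = 2.49e-04, 2 of 3 panicle arrays above background), SWEET1B 25.6-fold lower (log2 -4.68 ± 0.75, adjusted p = 0.00313, 2 of 3 panicle arrays above background) and the invertase CIN4 7.07-fold lower (log2 -2.82 ± 0.34, adjusted p = 0.00104).

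Starch genes gave 4 higher and 3 lower of 10, and only WX and RSR1 held whichever array was left out. WX, the granule-bound starch synthase, read 9.32, 12.16 and 12.25 on the panicle arrays and 6.89, 6.75 and 5.76 on the leaf arrays, 27.4-fold higher (log2 4.78 ± 0.79, adjusted p = 0.00360). RSR1, a regulator of starch synthesis genes, was 2.96-fold lower (log2 -1.57 ± 0.30, adjusted p = 0.00672). The count of higher starch genes was 1 without leaf replicate 2, leaf replicate 3 or panicle replicate 3, and 2 without panicle replicate 1 or 2. The count of lower ones was 1 without leaf replicate 2, leaf replicate 3 or panicle replicate 3, and on the deposited scale.

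**Figure D3:**
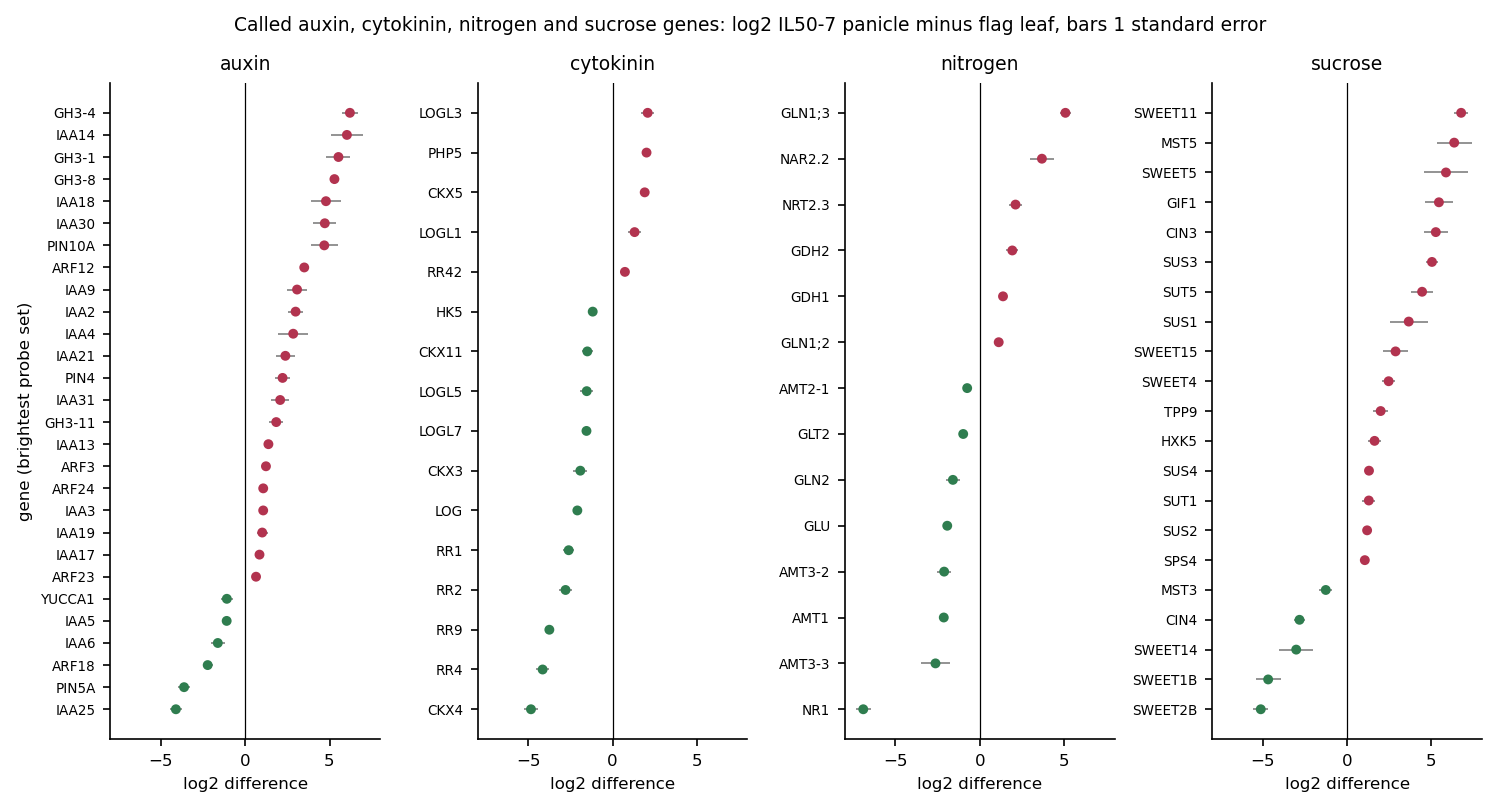
Log2 difference (IL50-7 panicle minus flag leaf) with 1 standard error for every called auxin, cytokinin, nitrogen and sucrose gene, each panel sorted by size. Auxin and sucrose genes lie mostly right of 0, while 11 of the 16 called cytokinin genes lie left of it.

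Most photosynthetic and chlorophyll genes called were lower in panicle, to unequal degrees. Of 7 light harvesting and electron transport genes, with a median log2 difference of -2.08, 5 fell and none rose, and all 5 held whichever array was left out. NDHM, a subunit of the chloroplast NDH complex, read 5.53, 6.92 and 6.38 on the panicle arrays and 11.23, 11.94 and 12.05 on the leaf arrays, 44.1-fold lower (log2 -5.46 ± 0.39, adjusted p = 1.56e-04). LFNR1, a leaf ferredoxin reductase, was 14.5-fold lower (log2 -3.86 ± 0.44, adjusted p = 7.94e-04), and PSAH, a photosystem I subunit, was 4.22-fold lower (log2 -2.08 ± 0.30, adjusted p = 0.00194). The panicle still gave strong signal for several. CAB2R, a light-harvesting protein, read 13.63, 13.59 and 13.65 on the panicle arrays and 13.86, 13.86 and 13.86 on the leaf arrays, the top of the normalized scale (adjusted p = 0.102). PETE, plastocyanin, read 12.98, 13.27 and 13.15 on the panicle arrays and 13.05, 13.06 and 13.07 on the leaf arrays, and the groups overlapped (adjusted p = 0.665). These lists hold only the part of each pathway whose genes carry a symbol in the annotation.

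Carbon fixation and photorespiration gave 6 lower and 2 higher of 13, of which 4 and 1 held whichever array was left out, and the count of higher genes was 1 without any array but leaf replicate 1 and 0 on the deposited scale or with array medians set equal. GLO1 and GLO5, glycolate oxidases of photorespiration, fell, GLO5 9.42-fold lower (log2 -3.24 ± 0.47, adjusted p = 0.00210). The 2 tested probe sets of GLO1 were called in opposite directions, and its brightest was 11.5-fold lower (log2 -3.52 ± 0.53, adjusted p = 0.00249). PPDKB, pyruvate phosphate dikinase, was 7.17-fold lower (log2 -2.84 ± 0.23, adjusted p = 2.21e-04). RBCS, the small Rubisco subunit, read 10.88, 12.68 and 12.63 on the panicle arrays and 12.88, 12.75 and 12.92 on the leaf arrays, with panicle replicate 1 lowest (adjusted p = 0.22). Chlorophyll synthesis gave 5 lower and none higher of 8, or 3 lower without leaf replicate 1 or leaf replicate 3. CHLI, a magnesium chelatase subunit, was 9.03-fold lower (log2 -3.17 ± 0.47, adjusted p = 0.00235), and PORB, a protochlorophyllide reductase, was 3.41-fold lower (log2 -1.77 ± 0.27, adjusted p = 0.00247). CHLH, another chelatase subunit, read 7.77, 10.28 and 9.73 on the panicle arrays and 12.65, 12.61 and 13.00 on the leaf arrays with its brightest probe set, 11.2-fold lower (log2 -3.49 ± 0.60, adjusted p = 0.00409). Its second probe set was called higher in panicle, and the mean of both gave a log2 difference of 0.17, so the direction of CHLH is uncertain.

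Genes of the chlorophyll breakdown and leaf senescence list were also lower, 7 of 9 of them, with none higher, and all 7 held whichever array was left out. SGR, the stay-green magnesium dechelatase, read 6.27, 5.89 and 6.27 on the panicle arrays and 10.04, 10.12 and 10.05 on the leaf arrays, 15.3-fold lower (log2 -3.93 ± 0.20, adjusted p = 5.91e-05). NYC1, a chlorophyll b reductase, was 7.28-fold lower (log2 -2.86 ± 0.24, adjusted p = 2.29e-04). The list also holds RSH and CRSH genes, which make the alarmone ppGpp and break down no chlorophyll. CRSH1, CRSH2 and RSH1 were among the 7 that fell. CRSH2 read 3.18, -0.25 and 0.29 on the panicle arrays and 8.71, 10.30 and 10.16 on the leaf arrays, at least 52.0-fold lower (adjusted p = 5.13e-04), and RSH1 was 3.90-fold lower (log2 -1.96 ± 0.18, adjusted p = 3.20e-04).

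Other genes were named for the size of their fall in panicle alone. BURP02, a BURP-domain gene, read 1.87, 3.29 and 4.33 on the panicle arrays and 12.98, 12.54 and 12.62 on the leaf arrays (adjusted p = 9.32e-05), while BURP16 was at least 2.37-fold lower (adjusted p = 0.0230), a call lost without leaf replicate 2 or 3. PDX12, named for the vitamin B6 synthesis family, read 4.75, 5.69 and 5.77 on the panicle arrays and 12.15, 12.47 and 12.66 on the leaf arrays, 130-fold lower (log2 -7.02 ± 0.31, adjusted p = 4.40e-05). LPR2 was 66.2-fold lower (log2 -6.05 ± 0.26, adjusted p = 3.77e-05), the thioredoxin Trx03 was 36.0-fold lower (log2 -5.17 ± 0.28, adjusted p = 6.91e-05) and BGLU16, of the beta-glucosidase family, was 35.7-fold lower (log2 -5.16 ± 0.44, adjusted p = 2.52e-04). GRXC1, a glutaredoxin, was 38.1-fold lower (log2 -5.25 ± 0.81, adjusted p = 0.00270), with panicle replicate 3 at 9.09 well above replicates 1 and 2 at 5.73 and 6.29. The genes without a descriptive name that changed most were LOC4326388, at least 620-fold higher (adjusted p = 2.23e-05), LOC4326386, at least 455-fold higher (adjusted p = 2.95e-05), LOC4332264, at least 443-fold higher (adjusted p = 1.68e-04), and, in the other direction, LOC9268392, 381-fold lower (log2 -8.57 ± 0.32, adjusted p = 2.95e-05), and LOC4352346, at least 319-fold lower (adjusted p = 1.02e-04). LOC4327573 averaged 4.02 in panicle and 12.64 in leaf (adjusted p = 3.58e-05). In the RefSeq annotation LOC4326388 and LOC4326386 lie on chromosome 1, as does RTS, while LOC9268392 and LOC4352346 lie on chromosome 12.

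Called auxin genes were mostly higher in panicle and called cytokinin genes mostly lower. Of 49 auxin genes, with a median log2 difference of 0.85, 22 rose and 6 fell, and 15 and 4 held whichever array was left out. GH3-8, which conjugates auxin to amino acids, read 9.83, 10.03 and 10.38 on the panicle arrays and 4.78, 4.76 and 4.82 on the leaf arrays, 39.1-fold higher (log2 5.29 ± 0.22, adjusted p = 3.59e-05). IAA30, an Aux/IAA repressor, was 26.3-fold higher (log2 4.72 ± 0.68, adjusted p = 0.00205), and ARF12, an auxin response factor, was 11.3-fold higher (log2 3.50 ± 0.26, adjusted p = 1.67e-04). IAA25 went the other way, with 4.75, 5.72 and 5.19 on the panicle arrays and 8.68, 9.70 and 9.60 on the leaf arrays, 17.3-fold lower (log2 -4.11 ± 0.38, adjusted p = 3.35e-04), and the efflux carrier PIN5A was 12.3-fold lower (log2 -3.63 ± 0.36, adjusted p = 4.54e-04).

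Of 27 cytokinin genes, with a median of -0.17, 11 fell and 5 rose, and 10 and 3 held whichever array was left out. Without leaf replicate 2 or leaf replicate 3 the count of higher members was 3, as it was on the deposited scale and with array medians set equal. RR4, RR9, RR2 and RR1, response regulators, all fell. RR4 read 6.0, 6.20 and 6.81 on the panicle arrays and 9.66, 10.93 and 10.85 on the leaf arrays, 17.7-fold lower (log2 -4.14 ± 0.39, adjusted p = 3.95e-04). RR9 was 13.4-fold lower (log2 -3.74 ± 0.23, adjusted p = 9.21e-05). CKX4, a cytokinin oxidase that degrades the hormone, read 6.38, 5.09 and 6.42 on the panicle arrays and 10.46, 11.14 and 10.79 on the leaf arrays, 28.5-fold lower (log2 -4.83 ± 0.40, adjusted p = 2.29e-04), whereas CKX5 was 3.76-fold higher (log2 1.91 ± 0.24, adjusted p = 0.00121). LOG, which activates cytokinin, was 4.24-fold lower (log2 -2.08 ± 0.17, adjusted p = 2.34e-04), and LOGL3, of the same family, was 4.24-fold higher (log2 2.09 ± 0.37, adjusted p = 0.00460).

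Gibberellin and brassinosteroid genes gave smaller counts from shorter lists. Of brassinosteroid genes 46.2% were lower and 7.69% higher, and of gibberellin genes 7.69% and 23.1%, beside 22.3% and 26.6% of all genes. GA20OX3, a gibberellin 20-oxidase, was 9.29-fold higher (log2 3.21 ± 0.25, adjusted p = 2.10e-04), and SD1, the 20-oxidase of the green revolution dwarfs, was 4.18-fold lower (log2 -2.06 ± 0.43, adjusted p = 0.00932). Of 13 gibberellin genes 3 rose and 1 fell, and the count of higher ones was 1 without leaf replicate 2 or 3. Of 13 brassinosteroid genes 6 fell and 1 rose. The count of lower ones was 2 without leaf replicate 2 or 3, and 3 without panicle replicate 2 or 3, and that of higher ones 0 without any array but leaf replicate 1 or panicle replicate 3. On the deposited scale 2 fell and 0 rose. TUD1, a ubiquitin ligase of brassinosteroid signalling, was 5.50-fold lower (log2 -2.46 ± 0.36, adjusted p = 0.00224) and kept its call whichever array was left out, as did IBH1, 2.34-fold lower (log2 -1.23 ± 0.24, adjusted p = 0.00742).

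Heat shock genes were strongly higher in panicle. Of 46 heat shock factors and proteins 33 rose and 7 fell, and 29 and 4 held whichever array was left out. On the deposited scale 30 rose and 2 fell. The median log2 difference was 2.13, beside 0.13 over all genes. HSFA2A, a heat-inducible heat shock factor, read 13.31, 13.37 and 13.32 on the panicle arrays and 5.88, 4.04 and 2.66 on the leaf arrays, 563-fold higher (log2 9.14 ± 0.72, adjusted p = 2.08e-04, 2 of 3 leaf arrays above background). The 3 panicle arrays lay close together at the bright end of the scale, and the leaf arrays spread from above to below background. HSP17.8, a small heat shock protein, read 13.19, 13.30 and 13.23 on the panicle arrays and 6.20, 3.31 and 3.49 on the leaf arrays, of which replicate 1 alone lay above background (adjusted p = 2.23e-04). HSP21.9 read 12.76, 12.78 and 12.83 on the panicle arrays and 4.41, 3.75 and 3.95 on the leaf arrays, again with replicate 1 alone above background (adjusted p = 1.49e-05). HSP23.2 was 343-fold higher (log2 8.42 ± 0.40, adjusted p = 5.07e-05, 2 of 3 leaf arrays above background), and HSP26.7, a chloroplast small heat shock protein, was 298-fold higher (log2 8.22 ± 0.42, adjusted p = 6.36e-05). HSP101, which resolves protein aggregates, read 13.25, 13.21 and 13.19 on the panicle arrays and 8.14, 7.77 and 7.85 on the leaf arrays, 39.3-fold higher (log2 5.30 ± 0.16, adjusted p = 1.96e-05). HSP16.9B, outside the list, was 596-fold higher (log2 9.22 ± 0.58, adjusted p = 1.02e-04, 2 of 3 leaf arrays above background). Small heat shock proteins of 1 class are near-identical, so signal of close relatives such as HSP16.9A and HSP16.9B cannot be separated by these probe sets with certainty.

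The rise did not cover the family. HSP81-3, of the large HSP90 chaperone class, was 1.73-fold higher (log2 0.79 ± 0.11, adjusted p = 0.00158). HSP18.8 fell, at 10.04, 9.91 and 10.05 on the panicle arrays and 12.11, 12.26 and 12.44 on the leaf arrays, 4.84-fold lower (log2 -2.28 ± 0.15, adjusted p = 1.13e-04). Heat shock factors HSFC1A and HSFA5 also fell, HSFC1A 2.99-fold lower (log2 -1.58 ± 0.31, adjusted p = 0.00675) and HSFA5 2.27-fold lower (log2 -1.18 ± 0.25, adjusted p = 0.00991). The count of lower members was 4 without leaf replicate 2 or panicle replicate 3. HSP18.6 was high on panicle replicate 2 and lower on the others, at 9.62, 13.48 and 10.67, against 7.38, 3.41 and 2.74 on the leaf arrays. The labels give no temperature at collection.

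**Figure D4:**
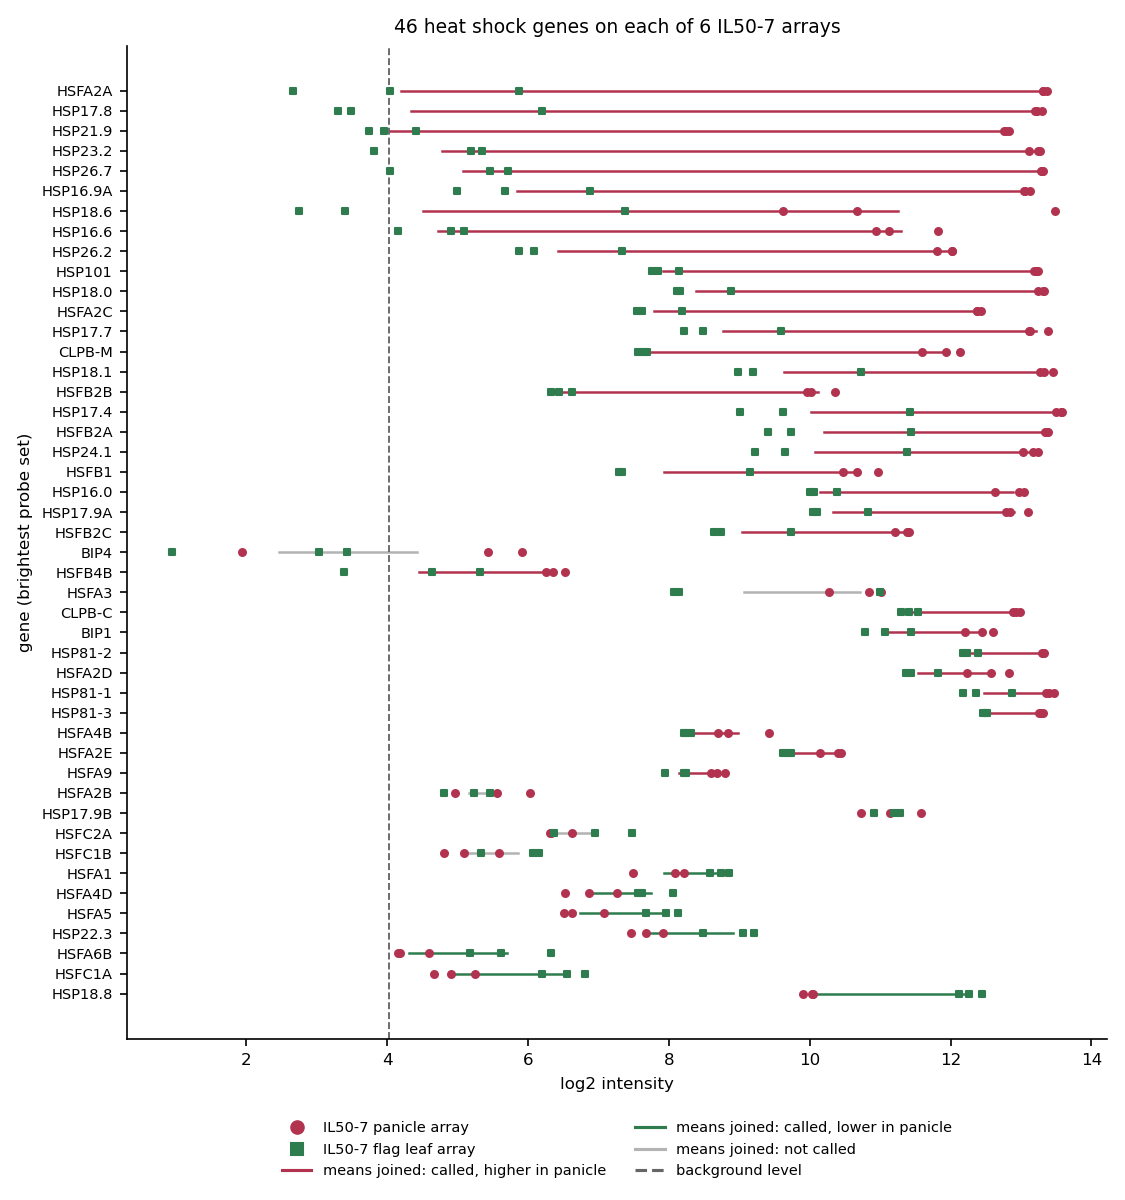
Level (log2 intensity) of 46 heat shock genes on each IL50-7 array, with panicle as circles, flag leaf as squares and a line joining the group means, sorted by difference. The upper 11 genes differ by at least 4.91 log2 units, and HSP18.8 at the bottom is lower in panicle.

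Water stress and calcium genes moved both ways. Of 85 dehydrin, ABA and drought genes 23 rose and 14 fell, near the shares of all genes. They were 14 and 14 when array medians were set equal and 15 and 11 on the deposited scale. The count of higher ones was 15 without leaf replicate 2, 12 without leaf replicate 3 and 13 without panicle replicate 2. LEA19, a late embryogenesis abundant protein, read 8.02, 8.38 and 8.15 on the panicle arrays and 4.56, 3.40 and 4.90 on the leaf arrays, 14.9-fold higher (log2 3.90 ± 0.42, adjusted p = 6.22e-04, 2 of 3 leaf arrays above background). DHN1, a dehydrin, was 5.89-fold higher (log2 2.56 ± 0.40, adjusted p = 0.00277). Type 2C protein phosphatases went in both directions, with PP2C28 4.66-fold higher (log2 2.22 ± 0.17, adjusted p = 2.00e-04) and PP2C01 13.9-fold lower (log2 -3.80 ± 0.39, adjusted p = 5.28e-04). ABA2, which makes the precursor of abscisic acid, read 9.34, 9.67 and 9.61 on the panicle arrays and 12.35, 12.41 and 12.31 on the leaf arrays, 7.05-fold lower (log2 -2.82 ± 0.15, adjusted p = 6.47e-05). Of 76 calcium sensors and kinases 24 rose and 16 fell, also near the shares of all genes, with 15 and 15 when array medians were set equal and 19 and 9 on the deposited scale, and the count of higher ones was between 13 and 15 without leaf replicate 2, leaf replicate 3 or panicle replicate 2. CBL4, a calcineurin B-like calcium sensor, was 13.4-fold lower (log2 -3.75 ± 0.29, adjusted p = 1.99e-04), and CIPK01, a kinase that such sensors bind, was 13.4-fold lower (log2 -3.74 ± 0.30, adjusted p = 2.24e-04). CPK29, a calcium-dependent kinase, read 5.4, 9.85 and 9.69 on the panicle arrays and 1.74, -0.03 and 3.36 on the leaf arrays, at least 19.6-fold higher (adjusted p = 0.00822), with panicle replicate 1 lowest. CML32, a calmodulin-like protein, read 7.06, 10.51 and 10.72 on the panicle arrays and 1.32, 1.02 and 4.64 on the leaf arrays (adjusted p = 0.00508).

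Nitrogen and mineral transport genes moved in both directions, also within families. Of 21 nitrogen genes 6 rose and 8 fell, and 6 and 4 held whichever array was left out. NR1, nitrate reductase, read 5.05, 5.71 and 3.90 on the panicle arrays and 11.56, 12.08 and 11.75 on the leaf arrays, 120-fold lower (log2 -6.91 ± 0.45, adjusted p = 1.15e-04, 2 of 3 panicle arrays above background). GLN2, the chloroplast glutamine synthetase, was 3.02-fold lower (log2 -1.59 ± 0.40, adjusted p = 0.0182), a call lost without leaf replicate 2 or 3. GDH1, a glutamate dehydrogenase, was 2.60-fold higher (log2 1.38 ± 0.18, adjusted p = 0.00135). The ammonium transporter AMT1 was 4.39-fold lower (log2 -2.14 ± 0.26, adjusted p = 0.00111). Without leaf replicate 2 or leaf replicate 3 the count of lower nitrogen genes was 4, and without panicle replicate 2 it was 5. On the deposited scale 6 rose and 5 fell.

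Of 18 phosphate, sulfate and boron genes 5 fell and 2 rose, or 3 lower without leaf replicate 2 and 1 higher without leaf replicate 2, leaf replicate 3, panicle replicate 1 or panicle replicate 2, and on the deposited scale or with array medians set equal. PHT1-7, a phosphate transporter, read 7.54, 7.51 and 8.25 on the panicle arrays and 2.59, 0.27 and -0.42 on the leaf arrays, at least 13.4-fold higher (adjusted p = 5.26e-04), while its relative PHT1-2 was 13.6-fold lower (log2 -3.76 ± 0.28, adjusted p = 1.63e-04). SPX2, a phosphate sensor protein, was 6.49-fold lower (log2 -2.70 ± 0.26, adjusted p = 4.31e-04). Metal genes gave 19 lower and 10 higher of 49, and 16 and 7 held whichever array was left out. COPT1, a copper transporter, read 7.04, 6.63 and 6.44 on the panicle arrays and 11.66, 12.22 and 12.13 on the leaf arrays, 39.3-fold lower (log2 -5.30 ± 0.24, adjusted p = 4.59e-05). VIT1, a vacuolar iron transporter, was 9.10-fold lower (log2 -3.19 ± 0.26, adjusted p = 2.23e-04), and YSL12, of the metal-chelate transporters, was 12.2-fold lower (log2 -3.61 ± 0.35, adjusted p = 4.38e-04). NRAMP5, a manganese transporter, was at least 10.2-fold higher (adjusted p = 2.73e-04), and YSL4 was at least 25.1-fold higher (adjusted p = 0.00653). Aquaporins gave 9 lower and 3 higher of 23. PIP1-3 read 7.40, 9.06 and 7.46 on the panicle arrays and 11.78, 12.58 and 12.43 on the leaf arrays, 19.6-fold lower (log2 -4.29 ± 0.47, adjusted p = 6.80e-04), while PIP2-4, of the same plasma membrane group, was 10.4-fold higher (log2 3.37 ± 0.50, adjusted p = 0.00229). Potassium and sodium transporters gave 11 higher and 6 lower of 28. HAK26 was at least 19.7-fold higher (adjusted p = 9.72e-04) and HAK27 37.8-fold lower (log2 -5.24 ± 0.46, adjusted p = 2.84e-04, 2 of 3 panicle arrays above background).

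Of 17 clock and flowering time genes 9 fell and 4 rose. PRR37, a pseudo-response regulator of the clock, averaged 9.62 ± 0.23 in panicle and 12.15 ± 0.13 in leaf (SD, n = 3 each), 5.77-fold lower (log2 -2.53 ± 0.17, adjusted p = 1.32e-04), with no overlap between the organs. HD5, a regulator of heading date, was 6.93-fold lower (log2 -2.79 ± 0.39, adjusted p = 0.00177). GI, a clock component, was 1.99-fold lower (log2 -0.99 ± 0.13, adjusted p = 0.00127). MFT1, of the phosphatidylethanolamine-binding protein family, was 17.4-fold higher (log2 4.12 ± 0.36, adjusted p = 2.72e-04, 2 of 3 leaf arrays above background). The labels give no hour of collection.

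More chromatin and small RNA genes rose than fell in panicle. Of 28 chromatin and small RNA genes 16 rose and 1 fell, and 11 and 0 held whichever array was left out. AGO2, an Argonaute, read 12.09, 11.65 and 11.82 on the panicle arrays and 9.05, 8.48 and 8.31 on the leaf arrays, 9.43-fold higher (log2 3.24 ± 0.24, adjusted p = 1.63e-04). AGO18 was 8.34-fold higher (log2 3.06 ± 0.33, adjusted p = 6.74e-04) and AGO1D 13.2-fold higher (log2 3.72 ± 0.47, adjusted p = 0.00122). MET1-2, a maintenance DNA methyltransferase, was 6.33-fold higher (log2 2.66 ± 0.24, adjusted p = 3.16e-04). DRM1, a de novo type DNA methyltransferase, was the member that fell, 1.51-fold lower (log2 -0.59 ± 0.19, adjusted p = 0.0428), a call lost without any array but leaf replicate 1, on the deposited scale and with array medians set equal.

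The remaining lists gave small counts, read beside the 26.6% higher and 22.3% lower of all genes. Well above those shares were WRKY at 50% lower, MYB at 40% lower and ABC transporters at 40% higher. The bZIP genes, at 29.4% higher and 23.5% lower, were near them. Ribosomal, NAC, terpenoid and ethylene genes lay below both. Ribosomal protein genes gave 6 higher and 1 lower of 24. RPS15 was 1.92-fold higher (log2 0.94 ± 0.18, adjusted p = 0.00655), and RPL27 read 8.14, 8.81 and 8.83 on the panicle arrays and 10.64, 11.27 and 11.21 on the leaf arrays, 5.46-fold lower (log2 -2.45 ± 0.27, adjusted p = 6.68e-04). The count of higher ribosomal genes was 3 without leaf replicate 2, panicle replicate 2 or panicle replicate 3, and with array medians set equal. ROP GTPases and formins, with the sucrose transporter SUT1, gave 4 higher and 2 lower of 14. RAC6, a ROP GTPase, was 4.16-fold higher (log2 2.06 ± 0.26, adjusted p = 0.00113), and the count of higher ones was 7 without leaf replicate 1 and 2 without leaf replicate 2, leaf replicate 3 or panicle replicate 2. Of the ROP and formin list 3 rose and 1 fell on the deposited scale. Of 6 WRKY, 7 NAC, 10 MYB and 17 bZIP genes, 0, 1, 2 and 5 rose and 3, 1, 4 and 4 fell. These small counts moved with single arrays and with the scaling: 1 WRKY gene fell without any leaf array or panicle replicate 3, 2 bZIP genes fell without any array but leaf replicate 1, 5 MYB genes rose without leaf replicate 1, and on the deposited scale no WRKY, NAC or bZIP gene fell and 1 MYB gene rose, and no NAC gene rose without leaf replicate 2, leaf replicate 3, panicle replicate 1 or panicle replicate 2. MYBS2 was 3.64-fold lower (log2 -1.86 ± 0.18, adjusted p = 4.39e-04), and RF2B, a bZIP factor, was 6.31-fold higher (log2 2.66 ± 0.39, adjusted p = 0.00210). ABC transporters gave 4 higher and 1 lower of 10, or 1 to 2 higher without any array but leaf replicate 1 and 0 lower without leaf replicate 1, leaf replicate 3, panicle replicate 2 or panicle replicate 3, and on the deposited scale. Terpenoid and flavonoid genes gave 6 higher and 3 lower of 34. Their higher count was 2 without leaf replicate 2 and 1 without leaf replicate 3, and their lower count 5 without leaf replicate 1 and 0 or 1 without leaf replicate 2, leaf replicate 3 or panicle replicate 3. Taken on the deposited scale, 7 rose and 1 fell. The call of KSL5, a diterpene cyclase, held whichever array was left out, 6.89-fold higher (log2 2.78 ± 0.61, adjusted p = 0.0111). Ethylene genes gave 2 higher and 2 lower of 15, or 6 higher without leaf replicate 1, 1 higher without any other array but panicle replicate 3 and 1 lower without leaf replicate 2. They were 1 and 1 on the deposited scale.

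Replicate arrays differed from each other in blocks of genes. A probe set was counted when 1 array of an organ lay at least 4-fold from both others, with values below background set to background, and when the other two lay within 2-fold of each other. This rule was set after the data had been seen. Panicle replicate 1 was low for 424 probe sets, and in 400 of these (94.3%) the leaf mean was also at least 2-fold below panicle replicates 2 and 3. Panicle replicate 3 was low for 54, with the leaf mean likewise below the other panicle arrays in 43 (79.6%). Panicle replicate 2 was low for 58, with the leaf mean likewise below in 32 (55.2%). Among the named genes low on panicle replicate 1, NifU1 read 4.94, 11.02 and 10.16 on the panicle arrays and 1.07, 1.77 and 2.51 on the leaf arrays. ADF9, an actin-depolymerising factor, read 5.87, 10.77 and 11.43 on the panicle arrays and 0.06, 2.05 and 2.42 on the leaf arrays. Genes of this block, such as EXPB9, EXPB10, CPK29 and ADF9, were low on panicle replicate 1, while the tapetum genes C4 and OSC6 were high on that array and low on panicle replicate 3. GER8, a germin-like protein, went with the tapetum pattern on the panicle arrays, at 11.46, 9.58 and 5.15, against 10.64, 5.4 and 5.71 on the leaf arrays. CML28, a calmodulin-like protein, read 2.05, 9.78 and 7.41 on the panicle arrays and 5.43, 6.71 and 5.69 on the leaf arrays. CIPK05 was low on panicle replicate 1, at 4.31, 10.29 and 9.99, and high on all leaf arrays, at 9.79, 11.54 and 11.57.

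Panicle replicate 2 was high for 101 probe sets, and in 48 of these (47.5%) the leaf mean was at least 2-fold above panicle replicates 1 and 3. PAL06, a phenylalanine ammonia-lyase, read 7.36, 11.72 and 6.38 on the panicle arrays and 8.24, 4.30 and 5.0 on the leaf arrays. Leaf replicate 1 was high for 736 probe sets, against 15 for leaf replicate 2 and 19 for leaf replicate 3, and in 598 of the 736 the panicle mean was also at least 2-fold above leaf replicates 2 and 3. TIFY11A, a jasmonate repressor, read 11.28, 11.31 and 11.07 on the panicle arrays and 11.33, 5.70 and 4.52 on the leaf arrays. DREB1B, a cold and drought regulator, read 9.36, 10.04 and 9.76 on the panicle arrays and 11.19, 4.97 and 4.76 on the leaf arrays. For both, leaf replicate 1 reached or passed the panicle level and the other leaf arrays lay far below it. JAZ13, another jasmonate repressor, read 13.04, 12.98 and 12.48 on the panicle arrays and 12.50, 6.57 and 6.47 on the leaf arrays, with leaf replicate 1 within the panicle range. CML31, a calmodulin-like protein, read 10.94, 10.26 and 10.11 on the panicle arrays and 11.44, 6.21 and 5.39 on the leaf arrays. GER5, a germin-like protein, had the widest range over the leaf arrays of all named genes, with 8.56, 4.56 and 4.16 on the panicle arrays and 11.87, 4.83 and 7.54 on the leaf arrays, and replicate 1 was the highest in both organs. Neither DREB1B (adjusted p = 0.219) nor DREB1G (adjusted p = 0.265) was called. Of 32 jasmonate and lipoxygenase genes 6 rose and 3 fell with all arrays, and 12 rose without leaf replicate 1. Without any 1 of the other 5 arrays the count of higher ones was 2 or 3, and with array medians set equal it was 2. LOX5, a lipoxygenase, rose in each of these fits, 10.9-fold higher (log2 3.44 ± 0.42, adjusted p = 0.00105).

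**Figure D5:**
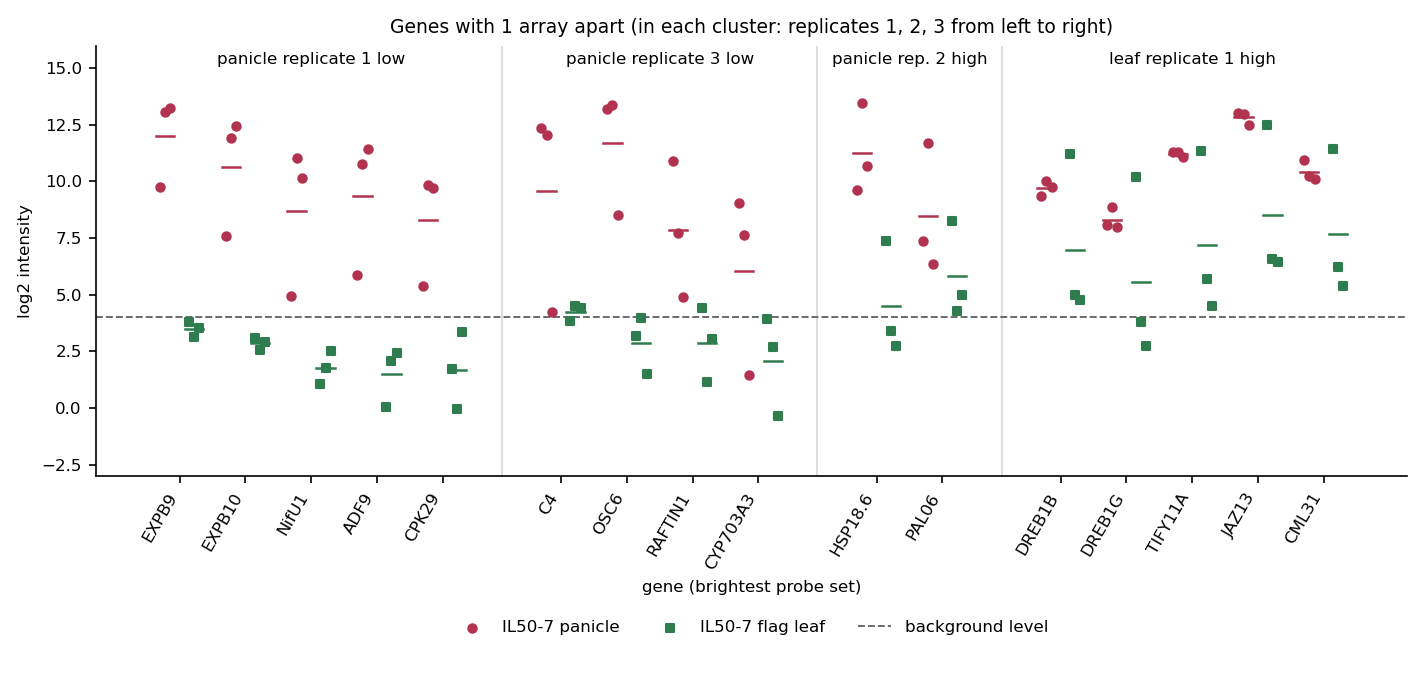
Level (log2 intensity) of 16 genes with 1 array apart on each IL50-7 array, panicle as circles left of flag leaf as squares, replicates 1 to 3 from left to right, with short lines at group means and the background level dashed. EXPB9, EXPB10, NifU1, ADF9 and CPK29 are low on panicle replicate 1, and DREB1B, DREB1G, TIFY11A, JAZ13 and CML31 are high on leaf replicate 1.

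The organ difference was also set beside that of KMR3, whose 6 arrays share none with IL50-7. In 1 limma model over all 12 arrays, 15590 of 34316 tested probe sets were called in IL50-7 and 16268 in KMR3. Of these, 13091 were called in the same direction in both, 84.0% of the IL50-7 calls and 80.5% of the KMR3 calls. Only 4 were called in opposite directions. With so many of the tested probe sets called in each line, part of the overlap would arise in any case. The difference between the organ effects passed for 10 probe sets (0.0291% of those tested), 7 of them with 1 listed gene. MT2C, a metallothionein, averaged 12.45 in panicle and 11.55 in leaf of IL50-7, and 12.63 in panicle and 8.5 in leaf of KMR3. The organ differences were 0.90 in IL50-7 and 4.12 in KMR3, apart by -3.22 (adjusted p = 0.0461). LOC4335011 averaged 11.08 in panicle and 8.73 in leaf of IL50-7, and 10.91 in panicle and 11.71 in leaf of KMR3, the only one of the 7 with organ differences called in opposite directions. The count of 10 ranged from 1 to 16 when single arrays were left out, with 16 without leaf replicate 1 of IL50-7 and 1 without any single panicle array of IL50-7 or without panicle replicate 1 or 2 of KMR3.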

How the data were processed

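Total RNA of field-grown plants was hybridised to Affymetrix rice arrays, 1 array per sample. The deposited values are 1 linear intensity per probe set; the submitters' processing notes list GCOS 1.2 but do not say what it did, and no source used here states a background correction or a scaling between arrays. The array number, 3 per group, limits the precision. The labels call the samples biological replicates, but nothing states separate plants, so p-values measure only the spread between these samples.

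From the deposited intensities, log2 values of the 6 IL50-7 arrays were quantile normalized with limma 3.58.1 (R 4.3.3) and floored at the 10th percentile (log2 0.28), 187 control probe sets were left out, and the 34316 of 57194 probe sets with a mean above the 40th percentile were tested. The test was limma's lmFit and eBayes with a trend, with Benjamini-Hochberg adjustment at 0.05 over all tested probe sets, checked on simulated data. A difference is panicle minus leaf on the log2 scale, ± 1 standard error, and a fold is its antilog. Where all arrays of an organ lay below background, that organ was set to background and the fold is given as "at least"; where its mean did but not every array, or 1 of its 3 arrays alone lay above, levels are given. Background was the 95th percentile of 23 control probe sets. A gene was represented by its brightest tested probe set, and levels are not compared between genes. The platform annotation listed 1 gene for 22436 probe sets, several for 95 and none for 34663; symbols and chromosomes came from RefSeq (ASM3414082v1). Of 493 single entries in the 49 gene lists, 246 matched.

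The comparison, its members and the gene lists were chosen with earlier results of these data known. Genes were named by rank of change among calls (12 symbols each way over all genes, 3 without a descriptive symbol each way, up to 4 each way per list), by the widest range over the arrays of an organ, and by a departure from KMR3; other named list members, and the genes with 1 array apart, were chosen after their values were seen. The 20 alternatives covered scaling, filter, floor, prior, weights, a replicate block, a fold minimum and left-out arrays. Promoter motifs were not analysed here.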

Additional observations from a re-analysis of the deposited data

Results flagged for a closer look

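For 7 genes the organ difference of IL50-7 departed from that of KMR3 in the test of the difference itself, by limma over all 12 arrays. MT2C, a metallothionein, gave an IL50-7 minus KMR3 difference of -3.22 on the log2 scale, from organ differences of 0.90 in IL50-7 and 4.12 in KMR3. For LOC4350599 the difference was -3.77, with a KMR3 leaf mean of -0.99, below the background of 4.02. For LOC4352177 it was -6.89, from organ differences of -8.96 in IL50-7 and -2.07 in KMR3, with both panicle means below background. For LOC4324961 it was 5.80, with panicle means of 3.08 in IL50-7 and 1.47 in KMR3. For LOC4328294 it was 3.58, with IL50-7 means of 3.51 in panicle and 3.45 in leaf. Low levels were not set to background in this test, so the sizes for LOC4350599, LOC4352177, LOC4324961 and LOC4328294 rest partly on signal below background. For LOC4325616 the difference was 2.97 and for LOC4335011 3.15. The adjusted p-values ran from 0.0210 for LOC4335011 to 0.0461.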

How the results depend on the processing

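The count of 13403 called probe sets stayed within 1.5 times under every alternative but a required fold of more than 1 on the log2 scale, which left 4624 with 45.6% of them higher in panicle. The share higher, 48.2%, was 57.3% on the deposited scale, which raised the median log2 difference of all probe sets by 0.19. Leaving out single arrays gave 9153 to 14427 calls, fewest without leaf replicate 2, and shares of 44.7% to 49.95%. Leaving out leaf replicate 1 and panicle replicate 2 together gave 11543. The labels number the replicates alike but do not say that they pair, so the numbers were not taken to pair samples. Same-numbered panicle and leaf arrays deviated together at r = 0.144, -0.056 and 0.131, against -0.202 to 0.133 for differently numbered arrays. These few values cannot decide whether the samples were paired. With the replicate block 12821 probe sets were called. Of 294 genes ranked by size of change among calls, over all genes or within a list, 285 kept their call. Not all of the 294 are named above, and some genes named above are not among them.

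The test against KMR3 was fragile: the count of 10 was 2 without the filter, 2 on the deposited scale, 4 with the replicate block and 1 to 16 with single arrays left out. Of the 294 ranked genes none turned direction with a test. Their call was kept by 247 on the deposited scale, 175 with the fold minimum and 234 to 274 with a single array left out. These genes were picked as called and for the size of their difference, so a stable direction was likely in advance. CHLH turned to 0.17 with the mean of its probe sets. The cause was not tested. Signal near background and near the top of the scale limits the size of the extreme differences.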
